A study of Mus musculus with 12 samples.

Results

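The genes of MHC class II, the ligand of Lag3, and of the proteins that assemble it were followed through 12 RNA libraries of mouse regulatory T cells (Tregs). They were chosen by symbol, 7 of the 23361 genes listed, and each of the 7 had a row: the class II chain genes H2-Aa, H2-Ab1 and H2-Eb1, the invariant chain gene Cd74, the peptide-loading genes H2-DMa and H2-DMb1, and the transactivator gene Ciita. The Tregs were Lag3-deficient or wild type (Wt) and came from pancreatic islets, which are under attack in autoimmune diabetes, or from lymph nodes that do not drain the pancreas (NDL). The groups were Lag3 islet, Wt islet, Lag3 NDL and Wt NDL, with 3 libraries each, and autoimmune diabetes was the model for all 4. The labels name cytoplasmic RNA as the material and give neither the Lag3 allele nor strain, age, sorting markers or library kit. They do not say that replicates came from separate animals, so a p-value reflects how far these libraries scatter, and that scatter may be technical.

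A class II molecule is a pair of an alpha and a beta chain that carries peptides from endosomes to the surface, where CD4 on helper T cells and the inhibitory receptor Lag3 bind it. The invariant chain, Cd74, escorts the new pair and plugs its groove, and H2-DM, a pair of H2-DMa and H2-DMb products, exchanges the plug for peptide. In mice class II is made chiefly by dendritic cells, B cells, macrophages and thymic epithelium, and T cells make little of it. Ciita binds no DNA itself and is brought to class II promoters by factors on the X box, which RFX binds, and the Y box, which NF-Y binds.

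Promoters were read because the chain genes differed in the same direction between tissues. RefSeq promoter windows (build GRCm38.p6) ran from 250 bases before to 50 after a gene's start. They were read for 4 of the 7 genes, H2-Aa, H2-Eb1, H2-DMa and H2-DMb1. No window of Cd74, H2-Ab1 or Ciita was read, so the search says nothing about the promoters of those genes. Both strands were searched for the Y core TGATTGG and the X core GNAACT, motifs chosen after these sequences were seen and sharing no bases in the windows named here. The Y core occurred in 7.82% and the X core in 42.8% of 32851 windows, and an X core followed 20 to 30 bases later by a Y core in 0.125%. The pair stood in the windows of H2-Aa, H2-Eb1 and H2-DMb1 and in neither window of H2-DMa. The H2-DMa windows, chr17:34122582-34122881 and chr17:34125268-34125567, lie inside its gene body given below, which begins at 34119541. That start was not searched, so the search cannot show that H2-DMa lacks the pair. The core letters describe the reference and show no binding. The stretches around the pair are printed for the chain genes, in the direction of the gene, with the X core first and the Y core second in capitals, H2-Aa from chr17:34287837-34287934 on the minus strand and H2-Eb1 from chr17:34305746-34305842 on the plus strand:
H2-Aa: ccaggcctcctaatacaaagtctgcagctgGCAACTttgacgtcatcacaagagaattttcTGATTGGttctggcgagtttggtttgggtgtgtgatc
H2-Eb1: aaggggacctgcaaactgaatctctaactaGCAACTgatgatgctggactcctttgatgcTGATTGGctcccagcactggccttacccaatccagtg
Between the cores lay 25 bases in H2-Aa and 24 in H2-Eb1.

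The gene bodies lie on chromosome 17 at 34282744 to 34287823 for H2-Aa, 34257689 to 34269419 for H2-Ab1, 34305867 to 34316674 for H2-Eb1, 34119541 to 34139101 for H2-DMa and 34153072 to 34160230 for H2-DMb1 (GRCm38). Cd74 lies on chromosome 18 at 60803848 to 60812652 and Ciita on chromosome 16 at 10480059 to 10528418.

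Values are the deposited rescaled counts, whole numbers with nearly the same total in each library, 15232498 to 15370098. Levels are also given in CPM, rescaled counts per M (M, mega) of a library's total after TMM scaling, where 1 CPM is about 15.3 rescaled counts. The column headers number the libraries of each group 1, 2 and again 1, written here 1a, 2 and 1b. Rn45s, a ribosomal RNA gene, took 1.26 to 1.68% of the 1b columns and 0.149 to 0.571% of the other 8. Depth could be read from the steps between values in 3 libraries, at 5.49 M reads in Lag3 islet 2, 9.73 M in Wt NDL 2 and 13.8 M in Lag3 NDL 1b. It is unknown in the other 9, so no counting intervals are given. The Treg genes Foxp3, Il2ra, Ctla4 and Ikzf2 and the T cell genes Cd3e and Cd4 were above 0 in each of the 12 libraries, and the 11 Treg and CD4 T cell markers in the table, of 12 listed, summed to 5963 to 10130 CPM.

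Lag3, the targeted gene, was listed at 1, 0 and 0 rescaled counts in Lag3 islet 1a, 2 and 1b, against 40, 48 and 120 in Wt islet 1a, 2 and 1b. It was at 1, 0 and 3 in Lag3 NDL, against 2, 5 and 6 in Wt NDL. The islet groups did not overlap, the NDL groups did, and the gene was low throughout. It passed the filter on low values through Wt islet alone, and its log2 difference in islets, -2.33 ± 0.63 (SE), did not pass (adjusted p = 0.863 over all genes in limma). With values this low in Wt NDL, Lag3 checks the genotype labels in islets and hardly in NDL.

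The alpha chain gene H2-Aa had 1913, 1671 and 345 rescaled counts in Lag3 islet 1a, 2 and 1b, against 2538, 473 and 560 in Wt islet. In NDL it had 349, 165 and 261 in the Lag3 libraries, against 19, 163 and 326 in the Wt libraries. The 6 islet libraries spanned a 7.36-fold range, and the genotypes overlapped in both tissues. On the CPM scale its mean was 95.6 ± 64.2 in Lag3 islet and 77.6 ± 74.2 in Wt islet, then 15.7 ± 5.38 in Lag3 NDL and 11.9 ± 11.5 in Wt NDL (SD, n = 3 each).

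H2-Ab1, the beta chain that pairs with H2-Aa, had 732, 257 and 329 rescaled counts in Lag3 islet 1a, 2 and 1b, against 772, 254 and 535 in Wt islet. In NDL it was listed at 131, 34 and 0 in the Lag3 libraries, against 0, 111 and 1 in the Wt libraries. The lowest of the 6 islet libraries, at 254, lay above the highest of the 6 NDL libraries, at 131. Within islets the genotypes overlapped, at 19.1 to 53.8 CPM in Lag3 islet and 16.9 to 49.6 CPM in Wt islet.

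H2-Eb1 encodes the E beta chain, whose alpha partner gene is a pseudogene in several inbred strains. The partner, H2-Ea-ps in the table, was listed at 0 to 3 rescaled counts in the 12 libraries. H2-Eb1 had 1361, 770 and 505 rescaled counts in Lag3 islet 1a, 2 and 1b, against 4541, 2660 and 1082 in Wt islet. In NDL it had 405, 486 and 3 in the Lag3 libraries, against 81, 130 and 302 in the Wt libraries. The islet and NDL libraries did not overlap, at 505 and more against 486 and less. The highest Lag3 islet library, 1a, lay above the lowest Wt islet library, 1b, so the genotypes overlapped. Mean levels were 63.2 ± 34.2 CPM in Lag3 islet and 181 ± 109 CPM in Wt islet, then 16.2 ± 14.6 CPM in Lag3 NDL and 11.7 ± 9.28 CPM in Wt NDL (SD, n = 3 each).

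Cd74, the invariant chain, had 2394, 2482 and 2418 rescaled counts in Lag3 islet 1a, 2 and 1b, against 5636, 3031 and 3806 in Wt islet. In NDL it had 2664, 832 and 1018 in the Lag3 libraries, against 429, 697 and 29 in the Wt libraries. The genotypes did not overlap in either tissue, with the Lag3 libraries below the Wt libraries in islets and above them in NDL. Mean levels were 172 ± 15.2 CPM in Lag3 islet and 275 ± 81.2 CPM in Wt islet, then 86.0 ± 40.8 CPM in Lag3 NDL and 23.7 ± 21.6 CPM in Wt NDL (SD, n = 3 each). In order of level the groups ran Wt islet, Lag3 islet, Lag3 NDL and Wt NDL, and no neighbouring pair in that order passed the test. One library, Lag3 NDL 1a, moves with the scaling: its 2664 rescaled counts exceed each Lag3 islet library, while its 130 CPM after a TMM factor of 1.34 lies below them.

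H2-DMa, the alpha chain of the peptide loader, had its highest values in NDL. It had 123, 8 and 81 rescaled counts in Lag3 islet 1a, 2 and 1b, against 421, 365 and 72 in Wt islet. In NDL it had 371, 778 and 587 in the Lag3 libraries, against 351, 1017 and 257 in the Wt libraries. The 3 Lag3 islet libraries lay below the 3 Lag3 NDL libraries, and the Wt libraries of the tissues overlapped. The 8 in Lag3 islet 2 stands for 3 reads. Mean levels were 4.94 ± 4.23 CPM in Lag3 islet and 18.8 ± 12.1 CPM in Wt islet, then 36.6 ± 16.0 CPM in Lag3 NDL and 34.8 ± 27.2 CPM in Wt NDL (SD, n = 3 each). H2-DMa overlaps Brd2 on the opposite strand, and whether the counting used strand is not given in the sources used here, so reads of the overlap cannot be told apart. Brd2, a chromatin reader, had 1095 to 3372 rescaled counts in islets and 1788 to 3562 in NDL.

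H2-DMb1, its beta chain, was near the floor, at 46, 6 and 0 rescaled counts in Lag3 islet 1a, 2 and 1b, against 7, 67 and 1 in Wt islet. It was listed at 7, 0 and 41 in the Lag3 NDL libraries, against 1, 0 and 0 in the Wt NDL libraries. Nearly all of its signal lay in 3 libraries of 3 different groups. H2-DMb2 is a near-identical copy, so the split of reads between the pair is uncertain. H2-DMb2 itself was at 139, 0 and 2 in Lag3 islet, against 2, 111 and 3 in Wt islet, and its highest library in each islet group was also the highest of H2-DMb1. It was at 7, 79 and 0 in Lag3 NDL, where the highest libraries of the pair differed, and at 14, 0 and 0 in Wt NDL.

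Ciita had 26, 11 and 25 rescaled counts in Lag3 islet 1a, 2 and 1b, against 114, 160 and 6 in Wt islet. In NDL it was listed at 0, 5 and 3 in the Lag3 libraries, against 0, 6 and 3 in the Wt libraries. The 2 highest values were both in Wt islet libraries, and the third Wt islet library equalled the highest NDL library, at 6. Ciita reached the minimum of the filter in islet libraries alone, so its place among the tested genes already required a difference in this direction. It overlaps Dexi on the opposite strand, which had 2 to 204 rescaled counts in islets and 76 to 437 in NDL.

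**Figure D1:**
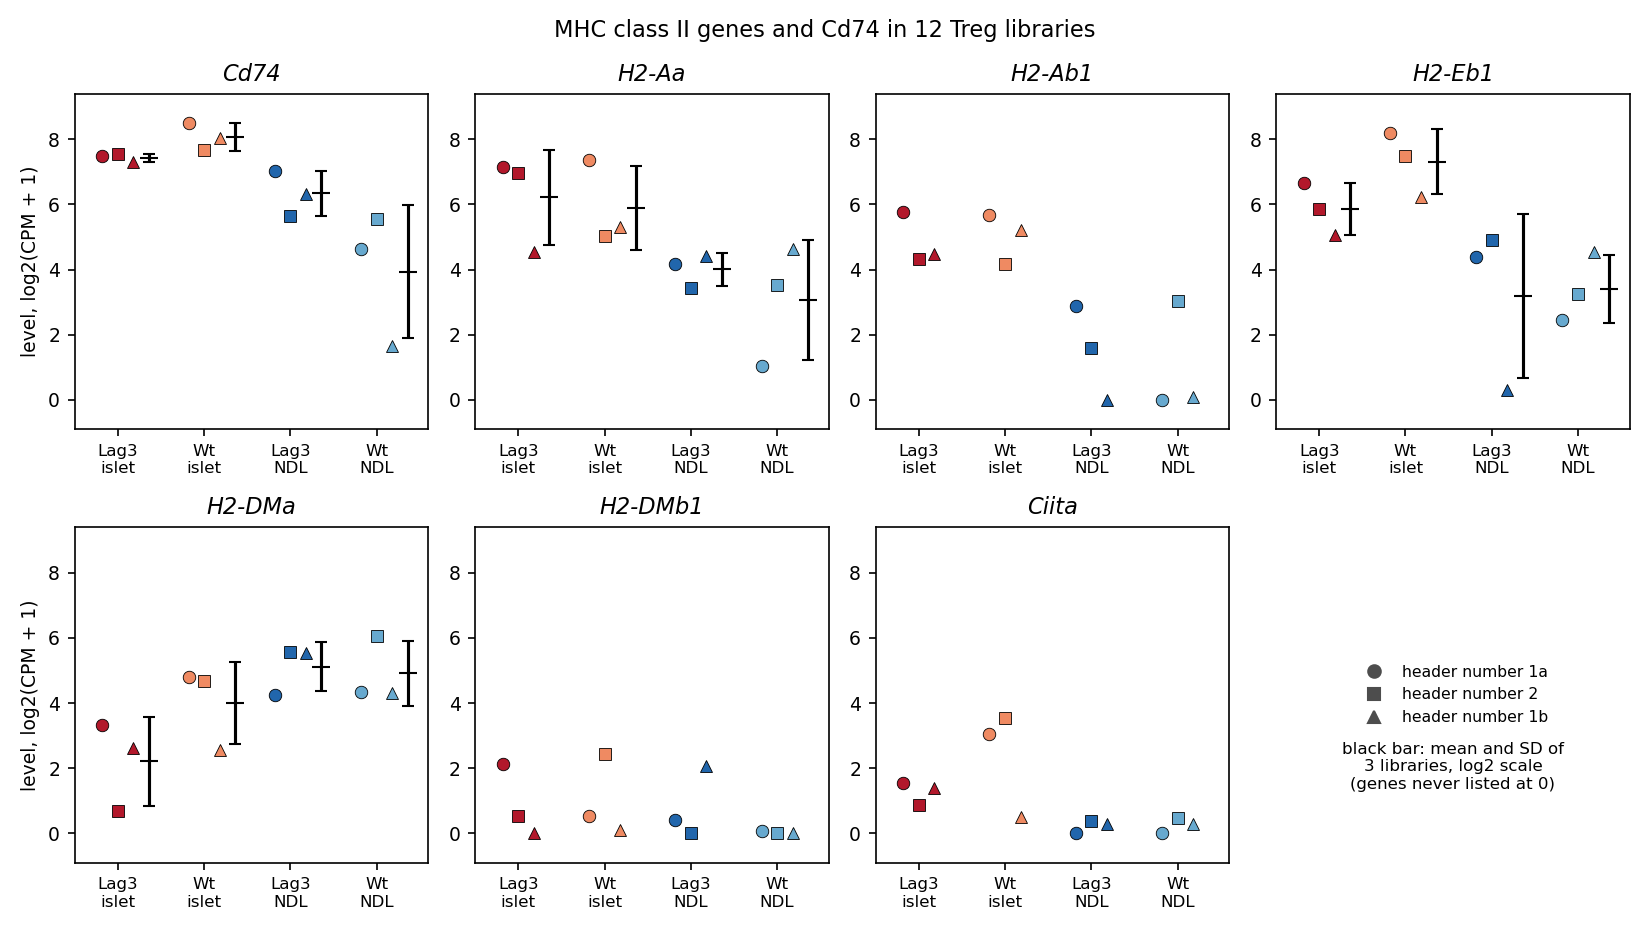
Levels of the 7 genes in each library, as log2(CPM + 1) on the vertical axis, for the groups Lag3 islet, Wt islet, Lag3 NDL and Wt NDL. Symbols mark the header numbers 1a, 2 and 1b, and the black bars show the mean and SD of 3 libraries for the 4 genes never listed at 0. On this scale Cd74, H2-Ab1 and H2-Eb1 sit higher in the 6 islet libraries than in the 6 NDL libraries, though in rescaled counts the 2664 of Cd74 in Lag3 NDL 1a exceed the Lag3 islet libraries, and H2-DMa overlaps between the tissues.

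The panels of levels by library show the shared shape of the chain genes and Cd74, and how wide the groups are. H2-Eb1 in Lag3 NDL and Cd74 in Wt NDL each have 1 library, the 1b column, far below the other 2. Measured per kilobase of transcript, Cd74 had the highest mean level of the 7 genes in 3 groups, at 122 ± 10.7 CPM per kb in Lag3 islet, 195 ± 57.6 in Wt islet and 61.0 ± 28.9 in Lag3 NDL. In Wt NDL the highest mean was that of H2-DMa, at 21.0 ± 16.4 CPM per kb, above Cd74 at 16.8 ± 15.3, a difference within the spread. In Wt islet H2-Eb1 came next after Cd74 with 109 ± 65.4 CPM per kb, and in Lag3 islet H2-Aa did with 84.8 ± 56.9 (SD, n = 3 each).

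Averaged over genotypes, Cd74 and H2-Eb1 RNA was higher in the islet Treg libraries than in the NDL Treg libraries, and both calls depended on single libraries. With both genotypes averaged, Cd74 rose in islets by 2.61 ± 0.53 (log2 difference ± SE, adjusted p = 0.0153 in limma), a 6.12-fold difference. H2-Eb1 rose by 3.28 ± 0.77 (adjusted p = 0.0408), a 9.72-fold difference. H2-Ab1 had a difference of 3.67 ± 0.95 and H2-Aa one of 2.52 ± 0.76, and neither passed the threshold of 0.05 (adjusted p = 0.0710 and 0.143 in limma). In bulk RNA, fewer cells of a type and less RNA per cell cannot be told apart, and that holds for each of these differences.

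Thus 2 of the 7 genes were called, both higher in islets, where 1.22% of the 10868 genes tested were called in either direction and 1.03% as higher. Ciita is left out of the counts and the median that follow, because it was tested only through its islet values. The median log2 difference was 2.56 over the other 6 genes and -0.03 over all genes tested. In 3 of the 6, Cd74, H2-Ab1 and H2-Eb1, the islet libraries lay above the NDL libraries in CPM, as they did for 1.38% of genes tested. Before adjustment 4 of the 6 had p under 0.05 as higher and 1 as lower, against 6.27% and 5.59% of genes tested. The islet libraries of Ciita also lay above its NDL libraries, by 0.409 CPM in Wt islet 1b against 0.390 CPM in Wt NDL 2. Ciita had a log2 difference of 1.57 ± 0.58 (adjusted p = 0.259 in limma) and H2-DMb1 one of 0.53 ± 0.56 (adjusted p = 0.756). The single negative difference was that of H2-DMa, -1.90 ± 0.82 (adjusted p = 0.348 in limma), while Brd2 on the opposite strand had -0.33 ± 0.37.

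The call of Cd74 was lost without Wt islet 1a (2.50, adjusted p = 0.0614 in limma) and without the 4 columns numbered 1b (2.10, adjusted p = 0.0715), and it had an adjusted p of 0.0119 with a term for those columns. That of H2-Eb1 was lost without any one of the 7 libraries Lag3 islet 1a or 2, any of the 3 Wt islet libraries, and Wt NDL 1a or 2 (adjusted p = 0.0550 to 0.137 in limma). It was lost with voom weights too (3.66, adjusted p = 0.0905). Without the 1b columns it was 3.33 (adjusted p = 0.0241).

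Within Wt Tregs, Cd74 rose in islets by 4.13 ± 0.76 (adjusted p = 0.0218 in limma), a 17.5-fold difference, and it was the only one of the 7 genes to pass. Among all genes tested 0.221% were called, 0.212% as higher. H2-Ab1 differed by 3.97 ± 1.34, H2-Eb1 by 3.89 ± 1.09, H2-Aa by 2.82 ± 1.07 and Ciita by 2.11 ± 0.82, none of them called (adjusted p = 0.237 to 0.496 in limma). Leaving out Ciita, 4 of the other 6 had p under 0.05 as higher before adjustment, against 4.78% of genes tested. The Wt islet libraries lay above the Wt NDL libraries in CPM for 5 of these 6, as for 8.03% of genes tested. The exception was H2-DMa, at -0.90 ± 1.16. For H2-DMb1 the separation came from the scaling alone, at 0.0682 CPM in Wt islet 1b against 0.0551 CPM in Wt NDL 1a. Both of those libraries had 1 rescaled count of it.

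The Wt call of Cd74 did not hold without Wt islet 1a (3.91, adjusted p = 0.147 in limma), without Wt islet 1b (4.13, adjusted p = 0.0991) or without Wt NDL 1b (2.97, adjusted p = 0.0587). Wt NDL 1b had the lowest Cd74 of the 12 libraries, 29 rescaled counts.

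Within Lag3-deficient Tregs the direction was the same for the chain genes, and none of the 7 was called. H2-Ab1 differed by 3.37 ± 1.34, H2-Eb1 by 2.67 ± 1.09, H2-Aa by 2.21 ± 1.07, Cd74 by 1.09 ± 0.76 and Ciita by 1.04 ± 0.82 (adjusted p = 0.443 to 0.732 in limma). H2-DMa differed by -2.91 ± 1.16 (adjusted p = 0.443), and H2-DMb1 stood at 0.058 ± 0.78. Among all genes tested 0.175% were called. Leaving out Ciita, 2 of the other 6 had p under 0.05 as higher and 1 as lower before adjustment, against 4.09% and 5.06% of genes tested, and a fit with voom weights called none. In CPM 4 of the 6 lay higher in each Lag3 islet library than in each Lag3 NDL library and 1 lower, as did 6.17% and 7.21% of genes tested. For H2-Aa that separation, 22.1 CPM in Lag3 islet 1b against 20.3 CPM in Lag3 NDL 1b, is within the scaling, since in rescaled counts Lag3 islet 1b had 345 and Lag3 NDL 1a 349.

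**Figure D2:**
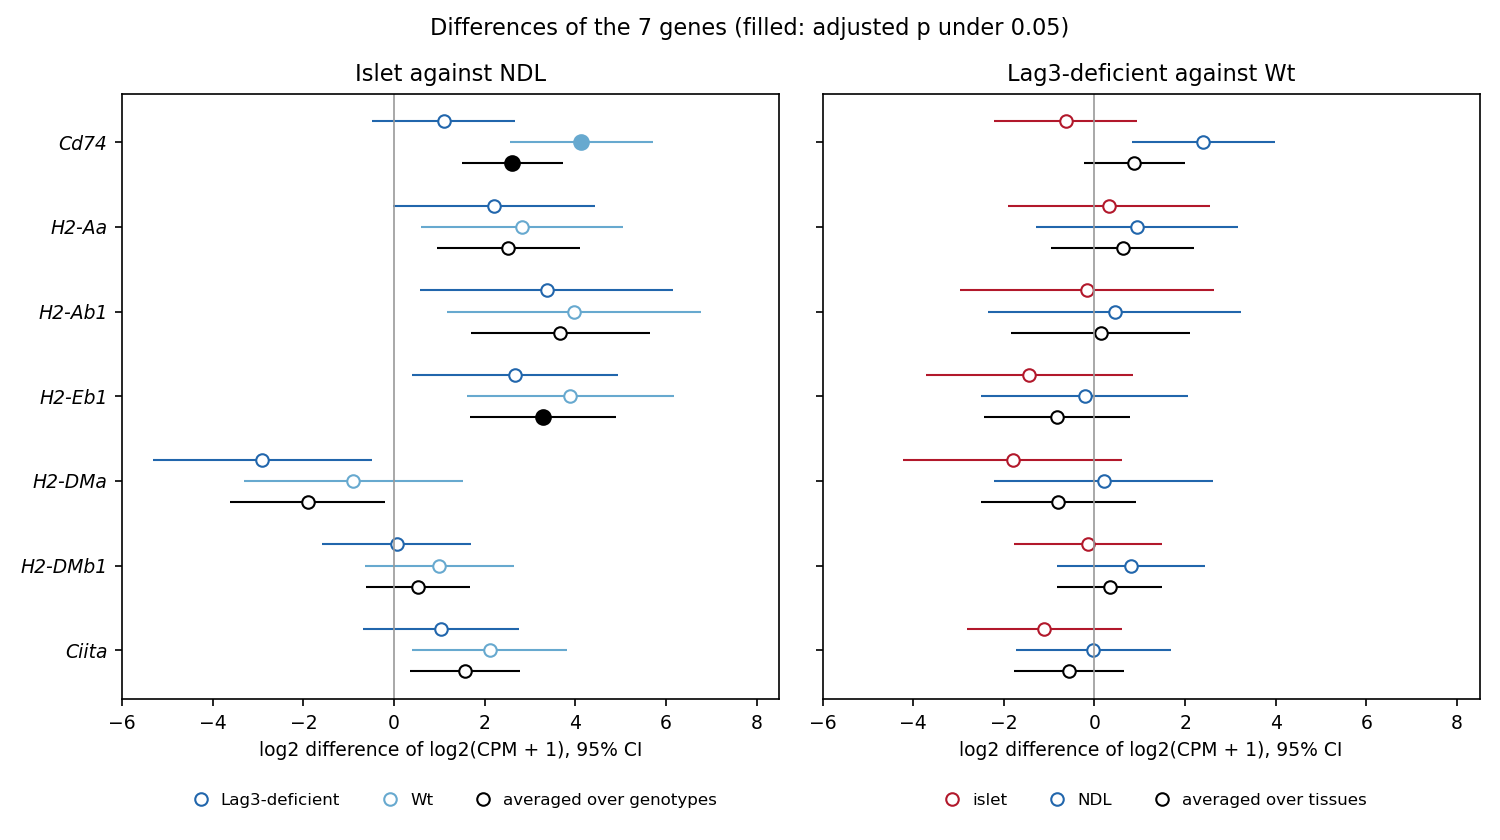
Log2 differences of log2(CPM + 1) for the 7 genes with 95% confidence intervals from limma, islet against NDL on the left and Lag3-deficient against Wt on the right. Filled points have an adjusted p under 0.05: Cd74 for Wt (4.13) and averaged (2.61), and H2-Eb1 averaged (3.28), while none of the genotype differences is filled.

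The plot of differences places the tissue and genotype effects on one scale. For Cd74, H2-Ab1 and H2-Eb1 the interval of the averaged tissue difference ran from 1.50 to 3.73, from 1.69 to 5.64 and from 1.67 to 4.89, each clear of 0. Those of H2-Aa, from 0.94 to 4.09, and Ciita, from 0.36 to 2.78, were clear of 0 too. Ciita was tested only through its islet values, so the place of its interval adds nothing. The intervals are not adjusted for the number of genes tested, and H2-Ab1, H2-Aa and Ciita were not called. H2-DMa lay on the other side of 0 from the chains it serves, from -3.61 to -0.19.

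Lag3 deficiency in islets changed none of the 7 genes at an adjusted p under 0.05 (0.961 to 0.999 in limma). No gene of the 10868 was called (0%), 0 of the 7 had p under 0.05 before adjustment, against 5.49% of genes tested, and voom weights called 0 of the 7. The differences were -0.64 ± 0.76 for Cd74, -1.44 ± 1.09 for H2-Eb1, -1.80 ± 1.16 for H2-DMa and -1.10 ± 0.82 for Ciita, and 0.32 ± 1.07 for H2-Aa, -0.16 ± 1.34 for H2-Ab1 and -0.14 ± 0.78 for H2-DMb1. Intervals were wide: for H2-Aa from -1.91 to 2.55 and for Cd74 from -2.21 to 0.94. Of the 7, Cd74 alone had libraries that did not overlap, lower in Lag3 islet, as had 5.21% of genes tested.

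In NDL the largest genotype difference among the 7 was that of Cd74, 2.40 ± 0.76 and higher in the Lag3 libraries (adjusted p = 1 in limma). It was the 1 of 7 with p under 0.05 before adjustment, where 1.54% of genes tested had that as higher, and no gene was called (0%). Its libraries did not overlap, as for 4.32% of genes tested, and without Wt NDL 1b the difference was 1.27. H2-Aa differed by 0.93 ± 1.07, H2-DMb1 by 0.80 ± 0.78, H2-Ab1 by 0.44 ± 1.34 and H2-DMa by 0.21 ± 1.16. H2-Eb1 stood at -0.22 ± 1.09 and Ciita at -0.029 ± 0.82 (adjusted p = 1 for each). Voom weights called none of the 7.

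Averaged over both tissues, the genotype difference of Cd74 was 0.88 ± 0.53, and the other 6 lay between -0.83 and 0.63, with 0 of the 7 called, against 0% of genes tested (adjusted p = 0.999 in limma). Before adjustment 0 of the 7 had p under 0.05, against 3.68% of genes tested, and voom weights called 0. The genotype effect in islets minus that in NDL tested whether the tissues differed. It was -3.04 ± 1.07 for Cd74 (adjusted p = 0.998 in limma). Leaving out Ciita, the median was -1.08 over the other 6 genes, against -0.11 over all genes tested. None of the 7 was called, nor was any gene (0%). Cd74 was the 1 of 7 with p under 0.05 before adjustment, where 2.71% of genes tested had that in the negative direction. These comparisons share their libraries, so their values for one gene are not independent of each other.

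The 3 chain genes did not keep a fixed ratio. Of their summed rescaled counts, H2-Aa made up 14.0 to 61.9% in islet libraries and 19.0 to 98.9% in NDL libraries. H2-Eb1 made up 28.5 to 78.5% in islets and 1.14 to 81.0% in NDL. The extreme was Lag3 NDL 1b, with 98.9% H2-Aa, no H2-Ab1 and 3 rescaled counts of H2-Eb1. Wt NDL 1a held 81.0% H2-Eb1 and no H2-Ab1. Cd74 amounted to 0.598 to 2.05 times the chain sum in islets and 0.0461 to 4.29 times in NDL, lowest in Wt NDL 1b, where H2-Aa and H2-Eb1 were at 326 and 302 and Cd74 at 29.

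**Figure D3:**
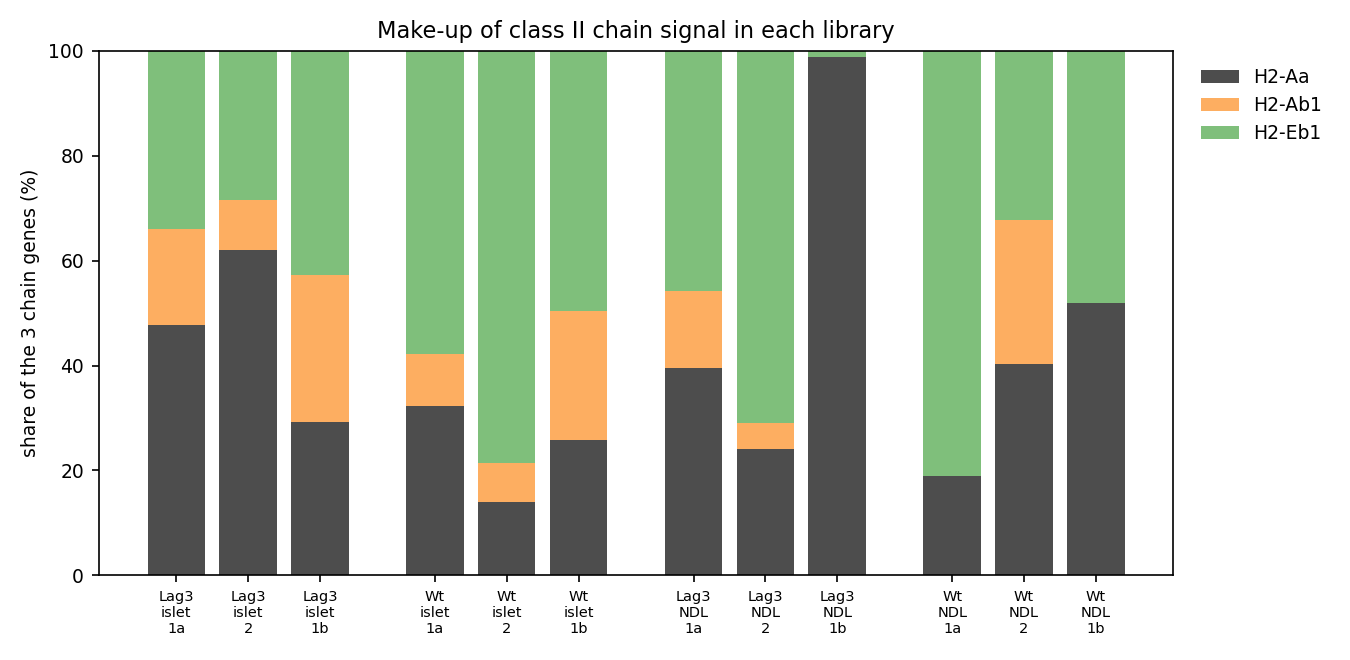
Share of H2-Aa, H2-Ab1 and H2-Eb1 in their summed rescaled counts, in percent, for each of the 12 libraries. H2-Eb1 is the largest share in the Wt islet libraries, at 49.7 to 78.5%, and the NDL bars range from 98.9% H2-Aa to 81.0% H2-Eb1.

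The bars of chain shares show that H2-Eb1 was the largest of the 3 in each Wt islet library, at 57.8, 78.5 and 49.7%, against 34.0, 28.5 and 42.8% in Lag3 islet 1a, 2 and 1b. The islet genotypes did not overlap in this share, a pattern picked out after the shares were seen and not tested. Across the 12 libraries the log2 levels of H2-Ab1 and H2-Eb1 had a Pearson correlation of 0.81 and those of Cd74 and H2-Ab1 one of 0.80, as a description, since the libraries share groups. Within the 6 islet libraries the same pairs stood at 0.40 and 0.51, and within the 6 NDL libraries at 0.45 and 0.52. H2-DMa had correlations of -0.33 to -0.47 with Cd74 and each chain over the 12 libraries, but within tissues most were above 0. With Cd74 they were 0.49 in islets and 0.35 in NDL, with H2-Ab1 0.32 and 0.31, with H2-Eb1 0.79 and -0.27, and with H2-Aa -0.023 and 0.16, in that order of tissues.

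Because class II is made chiefly by other cells, their markers are given beside these results. Macrophage and monocyte markers, 13 of 14 in the table, summed to 66.8 to 270 CPM in Lag3 islet and 119 to 246 CPM in Wt islet, against 1.71 to 37.7 CPM in Lag3 NDL and 0.440 to 16.2 CPM in Wt NDL. Cybb, a subunit of the phagocyte oxidase, was the 1 of 4 tested markers of the list to be called, in islet against NDL averaged over genotypes (6.02 ± 0.86, adjusted p = 6.46e-04 in limma) and within Wt (6.41 ± 1.22, adjusted p = 0.0302). It reached 10 rescaled counts in 6 islet libraries and 1 NDL library, so it passed the filter only through islets, its place among the tested genes already required a difference in this direction, and its calls add nothing to its counts. The Wt call was lost without any one of the 6 Wt libraries (6.03 to 6.63, adjusted p = 0.0769 to 0.160 in limma). In Lag3 islet 1b Cybb made up 126 of the 127 CPM of the list, while Lag3 NDL 2 summed to 37.7 CPM with Cybb at 0. The separation of the list's sum between tissues thus rests on Cybb. B cell markers, 10 of 12 in the table, summed to 8.33 to 306 CPM in Lag3 islet and 61.7 to 208 CPM in Wt islet, against 23.3 to 96.4 CPM in Lag3 NDL and 24.7 to 107 CPM in Wt NDL, and 0 of 6 tested were called in any comparison. Pax5, the factor that defines B cells, was at 0 in all 12 libraries. Ms4a1, which encodes CD20, had 656, 293 and 12 rescaled counts in Lag3 islet and 1372, 1008 and 399 in Wt islet. Dendritic cell markers, 12 of 12 in the table, summed to 136 to 523 CPM in Lag3 islet and 314 to 368 CPM in Wt islet, against 167 to 242 CPM in Lag3 NDL and 67.7 to 489 CPM in Wt NDL, most of it Cd83, which activated T cells also express, and 0 of 4 tested were called.

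Some markers of these cells were high in 1 or a few libraries. Wt islet 1a, highest of the 12 in rescaled counts of Cd74, H2-Aa, H2-Ab1 and H2-Eb1 and second to Lag3 islet 1a for H2-Ab1 in CPM, also held 1440 rescaled counts of Lyz2, 701 of Siglech, 589 of Cd209a, 284 of Clec9a and 198 of Flt3. Of these, Clec9a and Flt3 were at 3 or less in the other 11 libraries. In Wt islet 1a 9 of the 12 dendritic cell markers and 10 of the 13 macrophage and monocyte markers were above 0. Itgax, Ccl17, Ccl22, Cd68, Emr1 and Itgam were at 0 there, Cd14 at 1, Fcgr1 at 2, Xcr1 at 4 and Batf3 at 6. Lag3 islet 1a held 1188 of Cd209a, and Wt islet 1b held 458 of Csf1r, 382 of Siglech and 347 of C1qb. Lyz2 was also present in NDL, at 565 in Lag3 NDL 2 and 256 in Wt NDL 1a, and in islets at 270 in Lag3 islet 1a and 289 in Wt islet 1b. Cybb was at 489 or more in each islet library, and at 82 in Lag3 NDL 1a and 4 or less in the other 5 NDL libraries. The part of such cells in the class II and Cd74 differences was not tested.

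**Figure D4:**
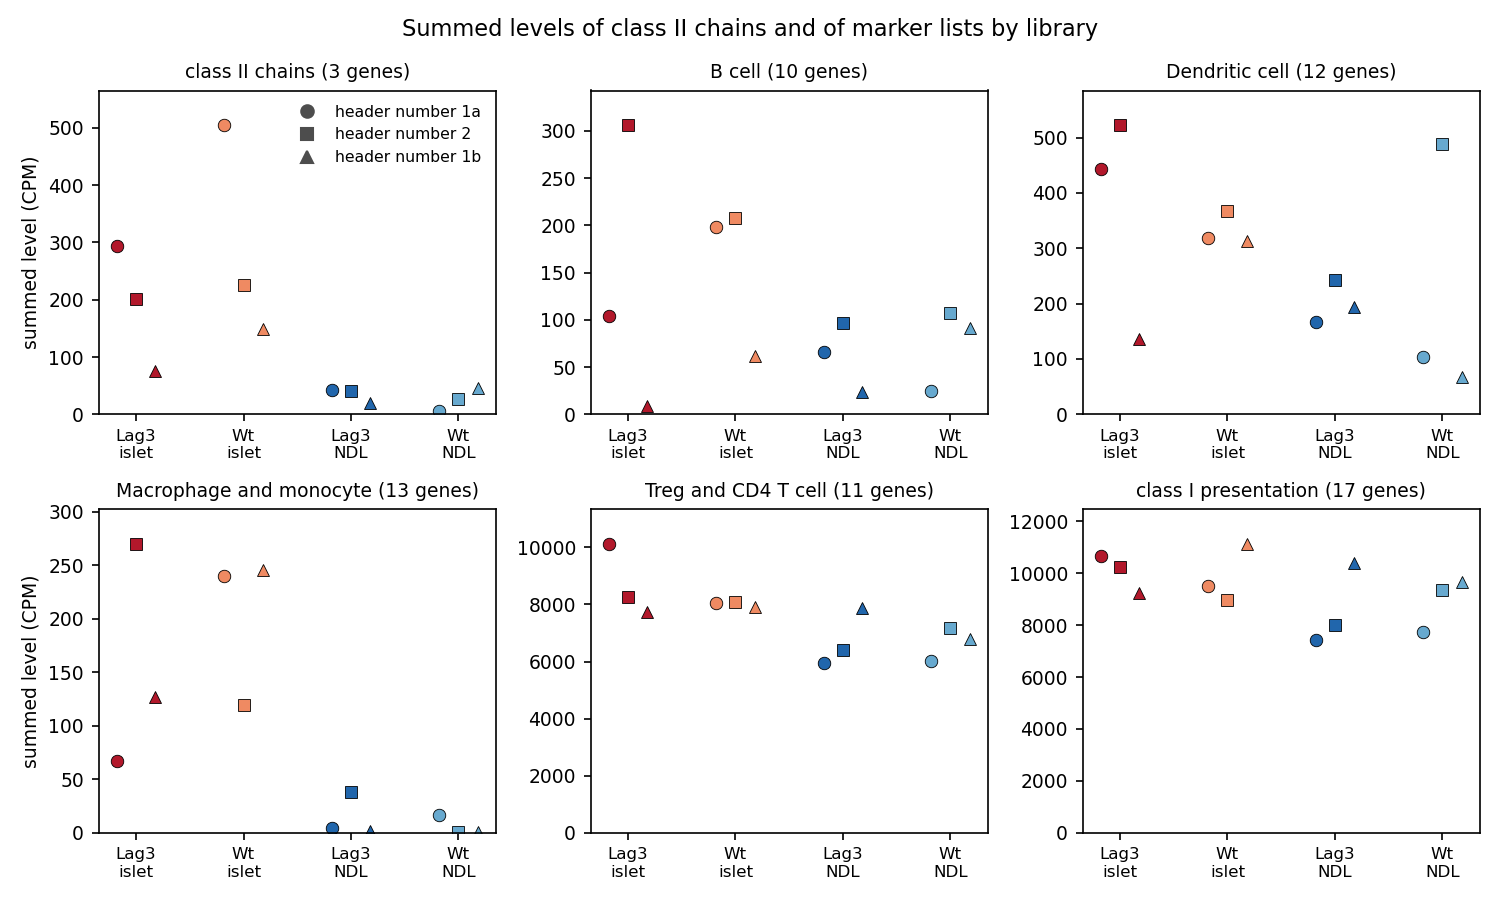
Summed levels in CPM, linear axes from 0, of the class II chains and of marker lists in each library, for Lag3 islet, Wt islet, Lag3 NDL and Wt NDL. The sums of class II chains and of macrophage and monocyte markers are higher in the 6 islet libraries than in the 6 NDL libraries. For the markers this rests on Cybb, 126 of the 127 CPM in Lag3 islet 1b. The sums for B cells, dendritic cells, Tregs and class I presentation overlap between the tissues, that for Tregs through Lag3 NDL 1b alone. The near separation of the Treg sums rests on Ctla4.

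In the plot of summed levels the class II chains reached 75.6 to 294 CPM in Lag3 islet and 149 to 505 CPM in Wt islet, against 20.5 to 43.2 CPM in Lag3 NDL and 5.51 to 46.2 CPM in Wt NDL. The sum of the Treg list ran from 7720 to 10130 CPM in Lag3 islet and 7924 to 8086 CPM in Wt islet, against 5963 to 7870 CPM in Lag3 NDL and 6007 to 7176 CPM in Wt NDL. The tissues overlapped only through Lag3 NDL 1b, at 7870 CPM against 7720 CPM in Lag3 islet 1b. Of the 11 tested genes of the Treg list Ctla4, an inhibitory receptor of Tregs, was the 1 called. It was higher in islets by 2.67 ± 0.22 averaged over genotypes (adjusted p = 4.32e-07 in limma), where 1.03% of all genes tested were called as higher. Ctla4 had means of 2668 ± 547 CPM in Lag3 islet and 2170 ± 281 CPM in Wt islet, against 303 ± 70.0 CPM in Lag3 NDL and 472 ± 98.3 CPM in Wt NDL (SD, n = 3 each). The near separation of the list's sum between tissues rests on Ctla4. Of the 11 genes, 5 had a positive averaged tissue difference, and the list's median was -0.037, against -0.03 over all genes tested.

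Other genes of the class II route showed no call. Of 15 accessory genes, for the H2-DO regulator, endosomal proteases, ubiquitin ligases and costimulators, 10 were tested and 0 called in any of the 7 comparisons by limma, with a median averaged tissue difference of 0.037 against -0.03 over all genes. In islet against NDL averaged over genotypes, 0 of the 10 had p under 0.05 before adjustment, against 6.27% of all genes tested as higher and 5.59% as lower, shares at which 10 genes can give 0. Ctsl, which encodes the protease cathepsin L, had 1274, 20 and 617 rescaled counts in Lag3 islet and 426, 3 and 752 in Wt islet, against 67, 145 and 13 in Lag3 NDL and 0, 47 and 23 in Wt NDL (2.37 ± 1.14, adjusted p = 0.424). Ifi30, the thiol reductase that opens disulphide bonds for class II loading, had 35, 8 and 587 in Lag3 islet against 838, 1242 and 1048 in Wt islet (-3.52 ± 1.36, adjusted p = 0.863 in limma). These groups did not overlap, with Lag3 islet lower, as for 5.21% of genes tested. H2-Ob and Cd86 did not pass in any comparison.

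Among 16 genes that act on class II transcription 15 were tested, and 1, Irf8, was called, as higher in islet against NDL averaged over genotypes, where 1.03% of all genes tested were called as higher. Irf8, an interferon regulatory factor of myeloid and B cells that some T cells also express, had 1057, 954 and 1130 rescaled counts in Lag3 islet and 2483, 1791 and 1386 in Wt islet, against 271, 728 and 289 in Lag3 NDL and 344, 510 and 33 in Wt NDL. The 6 islet libraries lay above the 6 NDL libraries, as for 1.38% of genes tested (2.41 ± 0.59, adjusted p = 0.0499 in limma). That call sat at the threshold and was lost when any library but Wt NDL 2 was left out (1.91 to 2.62, adjusted p = 0.0629 to 0.145), and without the 1b columns (2.02, adjusted p = 0.144). Irf4, a factor of effector Tregs, differed by 1.30 ± 0.43 (adjusted p = 0.192) and Ifngr1, a chain of the interferon gamma receptor, by 1.09 ± 0.32 (adjusted p = 0.132). Rfxap, a subunit of the RFX complex on the X box, had a difference of -2.93 ± 0.97 within Wt (adjusted p = 0.354). The list's median averaged tissue difference was 0.26.

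**Figure D5:**
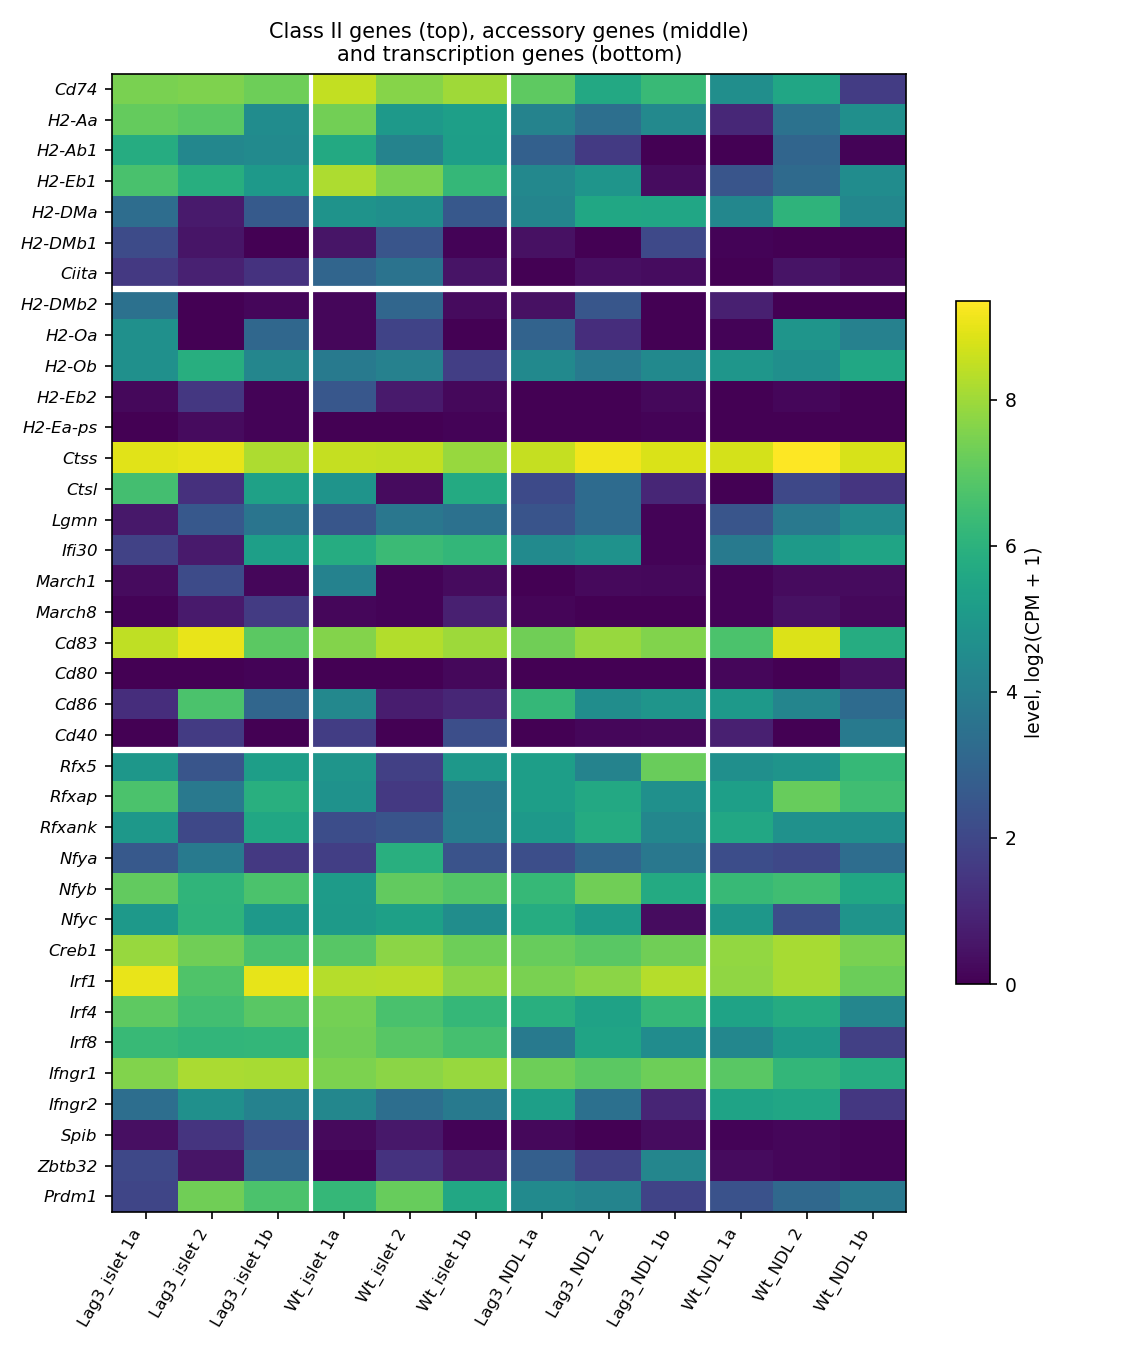
Heat map of log2(CPM + 1) for the 7 genes, 15 accessory genes and 15 of the 16 transcription genes of the class II route (rows) in the 12 libraries (columns, grouped as Lag3 islet, Wt islet, Lag3 NDL and Wt NDL). Cd74 and the chains lighten in the islet columns, while Ctss is high in all 12 libraries and H2-DMb1, Cd80 and H2-Ea-ps stay dark.

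The heat map sets the 7 genes beside their neighbours in the pathway. Ctss, which encodes the protease that trims the invariant chain, had 3478 to 10023 rescaled counts over the 12 libraries. Of 17 class I presentation genes 17 were tested and 0 called by limma in any comparison, with a median averaged tissue difference of 0.31 and 3 at p under 0.05 as higher, where 6.27% of genes tested had that. Psmb9, an immunoproteasome subunit, had 0.82 ± 0.37 (adjusted p = 0.388) and Calr, the chaperone calreticulin, 0.70 ± 0.29 (adjusted p = 0.319).

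The receptors of class II and of Cd74 and the other ligands of Lag3 made a list of 10, of which 8 were tested. The 1 called was Cxcr4, a chemokine receptor that also serves as a coreceptor for Mif with Cd74. It was called as higher in islet against NDL averaged over genotypes, as were 1.03% of all genes tested. Cxcr4 had 2420, 1411 and 1051 rescaled counts in Lag3 islet and 2124, 1120 and 896 in Wt islet, against 118, 179 and 131 in Lag3 NDL and 113, 592 and 267 in Wt NDL. The 6 islet libraries lay above the 6 NDL libraries, as for 1.38% of genes tested (2.89 ± 0.58, adjusted p = 0.0146 in limma). The call was lost without Lag3 islet 1a (2.70, adjusted p = 0.0501) or Wt islet 1a (2.72, adjusted p = 0.0713), and without the 1b columns (3.29, adjusted p = 0.0624). Lgals3, the galectin that also binds Lag3, differed by 3.29 ± 0.91 (adjusted p = 0.0970). Fgl1, a soluble ligand of Lag3, was listed at 0 in all 12 libraries, and Clec4g, which encodes the ligand LSECtin, at 0 to 6. Cd9, a tetraspanin on the list, had 48, 103 and 1030 in Lag3 islet against 2480, 1143 and 2316 in Lag3 NDL (-3.06 ± 0.92, adjusted p = 0.251).

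The 5 genes whose log2 levels most resembled Cd74 over the 12 libraries, of the 5600 genes whose log2 level averaged 4 or more, were Rrbp1, Tox, Timm8a1, Irf4 and Taf13, at Pearson correlations of 0.92, 0.92, 0.91, 0.91 and 0.90. Each of the 5 had its lowest level in Wt NDL 1b, the library with the lowest Cd74. Those most like the summed chains were Hsp90aa1, Ccl5, Igj, Rgs2 and Fgl2, at 0.89, 0.89, 0.88, 0.88 and 0.87. Igj, the immunoglobulin joining chain of plasma cells, had 1526, 9450 and 1142 rescaled counts in Lag3 islet and 6454, 7239 and 3149 in Wt islet, against 64, 0 and 1 in Lag3 NDL and 0, 2 and 2 in Wt NDL. Ccl5, a chemokine of effector T cells, had 943 to 1214 in Lag3 islet and 2059 to 3049 in Wt islet, against 87 to 165 in Lag3 NDL and 32 to 88 in Wt NDL. These correlations describe 12 libraries that share 4 groups and carry no test.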

How the data were processed

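RNA of Tregs was measured in 12 libraries, 3 per group. The authors deposited a table of 23361 genes as a signal, rescaled counts in whole numbers, and a second table of 10317 genes whose signal has nearly equal sorted values per library. It lacks H2-DMb1 and Ciita and served as an alternative. TopHat2, DESeq2 and mm10 are named in the submitters' processing notes, without version or role, and how the counts were made is not given in the sources used here. Class II chains differ between mouse strains, and how reads of another haplotype would map to mm10 was not examined. Header names gave each column's group but not its sample.

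The signal was scaled by TMM over the tested genes (trimming 30% of ratios and 5% of levels) and fitted as log2(CPM + 1) with limma 3.58.1 and a mean-variance trend in R 4.3.3, in 1 linear model of the 4 groups. On this scale a low gene's fold change comes out too small. A gene was tested where 3 or more libraries held 10 rescaled counts or more, which left 10868, each of the 7 among them. The p-values were adjusted by Benjamini-Hochberg over all of them within each of 7 comparisons, two-sided, with a threshold of 0.05. The script was tested on simulated data.

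Levels per kilobase used the longest principal transcript in the reference annotation. The 7 genes and the lists were chosen with earlier results of these data known. Besides the 7 and Lag3, up to 4 genes per list were named, those with the smallest p in any comparison. Others, such as Ctss, H2-DMb2, Fgl1 and single markers, were named after their values were seen. The values of 1 listed transcription gene are not reported here. Another 26 settings were tried, 2 of them chosen after seeing the data.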

Additional observations from a re-analysis of the deposited data

How the results depend on the processing

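The numbers of the 7 genes called stayed at 0 in the 3 genotype comparisons, in Lag3 islet against Lag3 NDL and in the difference of genotype effects under each alternative. In Wt islet against Wt NDL the count was 1, and it was 0 with no filter on low values, with voom weights and with only the groups compared in the fit, where Cd74 had adjusted p = 0.199, 0.0859 and 0.0719 (limma), and 0 to 2 when each library was left out. Without the 4 columns numbered 1b, Cd74 was lost (2.99, adjusted p = 0.236) and H2-Eb1 gained (4.98, adjusted p = 0.0483). In islet against NDL averaged over genotypes the count was 2, and it was 0 with no filter, 1 with no further scaling, 1 leaving out the 1b columns, 1 with TMM over all genes above 0, 1 leaving out the 3 libraries of known step, and 0 to 2 when each library was left out. The last 2 settings were chosen after seeing the data. With voom weights H2-Ab1 was gained (5.96, adjusted p = 0.0197) and H2-Eb1 lost (3.66, adjusted p = 0.0905), and H2-Ab1 was gained with the second table (3.70, adjusted p = 0.0337). With no further scaling the median of all genes was -0.14 in place of -0.03. Over all genes, calls ran from 9 to 57 around 24 in Wt islet against Wt NDL, from 50 to 175 around 133 averaged, from 8 to 38 around 19 in Lag3 islet against Lag3 NDL, and from 0 to 5 around 0 in Lag3 islet against Wt islet.

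Of 18 same-number pairs 2 correlated above 0.1 (-0.089 to 0.16), and of 36 other pairs 0 did (-0.14 to 0.098), so over all genes the numbers were not taken to pair the samples, although single genes such as Rn45s and H2-K1 followed them. With the header number as a replicate block, Cd74 kept adjusted p = 0.0264 in Wt and 0.0174 averaged, H2-Eb1 0.0411 averaged, and the calls over all genes were 15 and 124. The block ended the calls of Cybb in Wt (adjusted p = 0.0533) and of Irf8 averaged (0.0531).

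Differences that were not called changed sign in 13 cases, causes not tested. In Lag3 islet against Wt islet, leaving out a library gave -0.11 to 1.17 for H2-Aa, -0.59 to 0.16 for H2-Ab1 and -0.59 to 0.30 for H2-DMb1. H2-Ab1 was 0.078 with the second table, 0.21 leaving out the 1b columns and 0.089 leaving out the 3 libraries of known step, where H2-Aa was -0.067. In Lag3 NDL against Wt NDL, leaving out a library gave -0.075 to 1.73 for H2-Aa, -0.26 to 1.44 for H2-Ab1, -1.06 to 1.23 for H2-Eb1, -0.080 to 0.79 for H2-DMa and -0.15 to 0.085 for Ciita. There the second table gave -0.42 for H2-Ab1 and 0.089 for H2-Eb1. H2-Eb1 was 0.11 with a pseudocount of 5, 1.80 leaving out the 1b columns and 1.15 leaving out the 3 libraries of known step, where Ciita was 0.043, and H2-DMa was -0.30 without the 1b columns. Averaged over tissues, H2-Ab1 was -0.011 with a pseudocount of 5, -0.17 with the second table and -0.19 to 0.64 when a library was left out, and H2-Eb1 was 0.15 without the 1b columns. H2-DMb1 ran from -0.36 to 0.50 in Lag3 islet against Lag3 NDL. In the difference of genotype effects, H2-Aa ran from -1.40 to 0.44 and H2-Ab1 from -1.60 to 0.13, or 0.50 with the second table. Depth limits the low genes most: 8 rescaled counts of H2-DMa in Lag3 islet 2 are 3 reads.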

Other observations

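The class I genes H2-K1 and H2-T23 followed the header number rather than the group, a pattern picked out after the values were seen. H2-K1, a classical class I heavy chain, had 2640 to 4792 rescaled counts in the 4 columns numbered 2, against 10722 to 15372 in the columns 1a and 6302 to 11038 in the columns 1b. H2-T23, the class Ib heavy chain Qa-1, had 53 to 71 in the columns numbered 2, against 220 to 363 in 1a and 183 to 500 in 1b. H2-D1, the other classical heavy chain of the list, had 25027 to 42200, 31204 to 47246 and 25131 to 36752 in the columns 2, 1a and 1b. Of the 10868 genes tested, 39 (0.359%) lay lower in CPM in each column numbered 2 than in the other 8, and 26 lay higher, with none of the 7 class II genes among them. The cause was not tested.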
